A study of Mus musculus with 6 samples.

Results

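The 32 genes described here are the immediate early, early feedback and heat shock genes of the hippocampus, a set that answers stimulation of a cell and also the handling of tissue. They were listed by gene symbol, with no measured value in the rule, but earlier results of these data were known when they were chosen. All 32 were found among the 28324 genes of the count table. By role they comprise 6 AP-1 genes (Fos, Fosb, Jun, Junb, Jund, Atf3) and 8 other induced transcription factor genes (Egr1, Egr2, Egr3, Nr4a1, Klf2, Klf4, Klf6, Npas4). The synaptic effector Arc stands alone, and 10 genes encode feedback and signalling proteins (Dusp1, Zfp36, Btg2, Ier2, Ier3, Ier5, Gadd45b, Rhob, Socs3, Nfkbia). The last 7 encode heat shock proteins (Hspa1a, Hspa1b, Hspa8, Hsp90aa1, Hsp90ab1, Dnajb1, Hspb1). Since Hspa8, Hsp90aa1 and Hsp90ab1 are made by nearly every cell at rest, sums over the module are given for these 3 chaperone genes and for the other 29 members apart.

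Hippocampi were dissected, dissociated into single cells and profiled by Drop-Seq, in which each cell shares a droplet with a barcoded bead and transcript 3′ ends are counted by unique molecular identifier (UMI). All 6 mice were of strain B6.Cg-Tg(APPswe,PSEN1dE9)85Dbo/Mmjax (APP/PS1), so controls and treated animals alike carried the amyloid transgenes APPswe and PSEN1dE9, and all were 10 weeks old. In these transgenic mice a mutant amyloid precursor protein and a mutant presenilin are driven by a prion protein promoter. Treatment was an antisense oligonucleotide (ASO) in 3 mice and phosphate buffered saline (PBS) in 3, and the series is titled as a study of reduced IDOL, the ubiquitin ligase encoded by Mylip. Since no group received an oligonucleotide without this target, what any oligonucleotide does and what loss of Mylip does cannot be told apart. No sample label says how or when the tissue was dissociated for each mouse.

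Immediate early genes are transcribed within minutes of a stimulus without new protein synthesis, when signalling kinases activate factors already in the nucleus such as SRF and CREB. Their products include transcription factors that drive later genes and proteins that shut the response down: Dusp1 dephosphorylates MAP kinases, Zfp36 destroys AU-rich mRNAs, Nfkbia holds NF-kB in the cytoplasm and Socs3 dampens cytokine receptors. Heat shock genes are driven by HSF1 when proteins unfold. In the hippocampus Arc, Npas4, Egr1 and Fos are used as marks of recent neuronal firing, while warm enzymatic dissociation is known to induce many of the same genes in microglia and vascular cells. Single-cell levels of these genes can therefore hold both.

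Promoter sequence from RefSeq (build GRCm38.p6) was found for 25 of the 32 members. Egr1, Egr3, Arc, Ier2, Hspa8, Hsp90aa1 and Hsp90ab1 had no entry. The 250 bases before the start were searched on both strands for 5 motifs. The full cAMP response element (CRE), TGACGTCA, was found in 2 of 25 members against 1.77% of all 27025 genes with such a window. The CArG box, to which SRF binds, was found in 2 of 25 members against 1.62% of all 27025 genes, the kappaB site, to which NF-kB binds, in 8 of 25 members against 8.23% of all 27025 genes, and a pair of heat shock half-sites, GAANNTTC or TTCNNGAA, in 5 of 25 members against 14.5% of all 27025 genes. The AP-1 site TGAGTCA was in 0 of 25 members and in 5.16% of genes. The motifs can overlap one another, and a match is a description of letters. The 150 bases before the start are printed 5′ to 3′ for 6 members whose values are described below, with matches in capitals: a CRE in Dusp1, a CArG box in Zfp36, a kappaB site in Nfkbia, heat shock pairs in Hspb1, and a heat shock pair after a kappaB site in Hspa1a and Hspa1b.
Dusp1: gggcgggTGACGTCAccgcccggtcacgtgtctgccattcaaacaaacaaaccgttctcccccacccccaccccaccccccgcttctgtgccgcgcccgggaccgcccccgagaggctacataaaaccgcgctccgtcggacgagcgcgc
Zfp36: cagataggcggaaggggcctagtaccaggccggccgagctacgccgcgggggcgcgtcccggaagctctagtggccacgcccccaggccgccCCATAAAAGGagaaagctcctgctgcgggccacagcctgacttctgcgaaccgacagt
Nfkbia: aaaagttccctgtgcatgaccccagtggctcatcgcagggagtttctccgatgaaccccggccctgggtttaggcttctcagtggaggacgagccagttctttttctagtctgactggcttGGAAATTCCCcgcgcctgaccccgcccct
Hspa1a: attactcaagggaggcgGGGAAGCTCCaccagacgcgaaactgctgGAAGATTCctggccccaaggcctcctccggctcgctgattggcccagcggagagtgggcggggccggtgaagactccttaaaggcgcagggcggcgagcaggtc
Hspa1b: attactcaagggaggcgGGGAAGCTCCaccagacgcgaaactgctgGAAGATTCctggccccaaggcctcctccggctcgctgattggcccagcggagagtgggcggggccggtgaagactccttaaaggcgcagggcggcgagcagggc
Hspb1: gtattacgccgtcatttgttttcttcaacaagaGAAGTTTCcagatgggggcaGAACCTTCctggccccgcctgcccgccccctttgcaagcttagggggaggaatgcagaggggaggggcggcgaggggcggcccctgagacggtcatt
The windows are Dusp1 at chr17:26508473-26508622 (minus strand), Zfp36 at chr7:28379229-28379378 (minus strand), Nfkbia at chr12:55492648-55492797 (minus strand), Hspa1a at chr17:34972157-34972306 (minus strand), Hspa1b at chr17:34959239-34959388 (minus strand) and Hspb1 at chr5:135887769-135887918 (plus strand). Hspa1a and Hspa1b, neighbouring copies that both encode the inducible HSP70 chaperone, differed at 1 of these 150 bases and at 3 of the 250 upstream. Of the words of 50 bases in their transcripts, 58.8% of those of Hspa1a occur in Hspa1b. In the last 300 bases, where Drop-Seq reads fall, 0 of 251 words were shared. How the authors' counting treated reads that match both copies is not given in the sources used here, so the split between the 2 genes is uncertain.

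The table held 12823 cells in 17 classes named by the authors, of which 12616 remained after 207 called doublets were removed. Totals ran from 2005768 to 3150332 UMIs per mouse, with a median of 1027 to 1096 UMIs per cell, and 8 of 12811 barcodes occurred in more than 1 library. Mylip stood at 60.2, 70.0 and 74.8 CPM (counts scaled to an equal total of UMIs) in the PBS mice and at 38.7, 30.2 and 33.9 in the ASO mice, so the target was lower in every ASO mouse. In 13 of 13 classes with a marker list, that list was highest in its own class. The mice were ranked by the ratio of the mitochondrial transcripts mt-Rnr2 and mt-Cytb and taken 2 at a time, which gives 3 sets whatever the values. Each of these technical sets held 1 PBS and 1 ASO mouse: the mice numbered 2 (ratios 7.16 and 4.49), those numbered 1 (12.9 and 10.9) and those numbered 3 (16.8 and 15.9). Whether the mice of a set were handled together was not tested. The labels name no batch and pair no mice, and the mouse numbers only follow the order of the samples in each group. Values within these sets are given in that order, as set 1, set 2 and set 3.

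Across the cell classes, the 29 members other than the 3 chaperone genes were abundant in vascular, immune and ciliated cells and scarce in neurons and astrocytes. They took 2.54% ± 0.883 (SD, n = 6 mice) of all UMIs in fibroblast-like cells, 2.18% ± 0.254 in the class of microglia and macrophages, 2.12% ± 0.316 in mural cells (pericytes and smooth muscle), 1.94% ± 0.215 in endothelial cells and 1.64% ± 0.294 in ependymal cells. Polydendrocytes, the oligodendrocyte precursors, stood lower at 1.07% ± 0.113, and the ranges of the first 5 classes over mice overlapped one another. Choroid plexus cells (0.524% ± 0.127), the neurogenesis class (0.444% ± 0.226), Cajal-Retzius neurons (0.388% ± 0.0564) and oligodendrocytes (0.387% ± 0.0533) lay between. The 7 classes at the bottom held 0.0764% (interneurons) to 0.127% (subiculum neurons), with astrocytes at 0.0994% ± 0.0241 and dentate neurons at 0.0958% ± 0.0105. The classes had been defined from these cells' own transcripts, so the order is a description without a test. The 3 chaperone genes followed another order, from 1.01% of UMIs in ependymal cells to 0.157% in astrocytes.

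**Figure D1:**
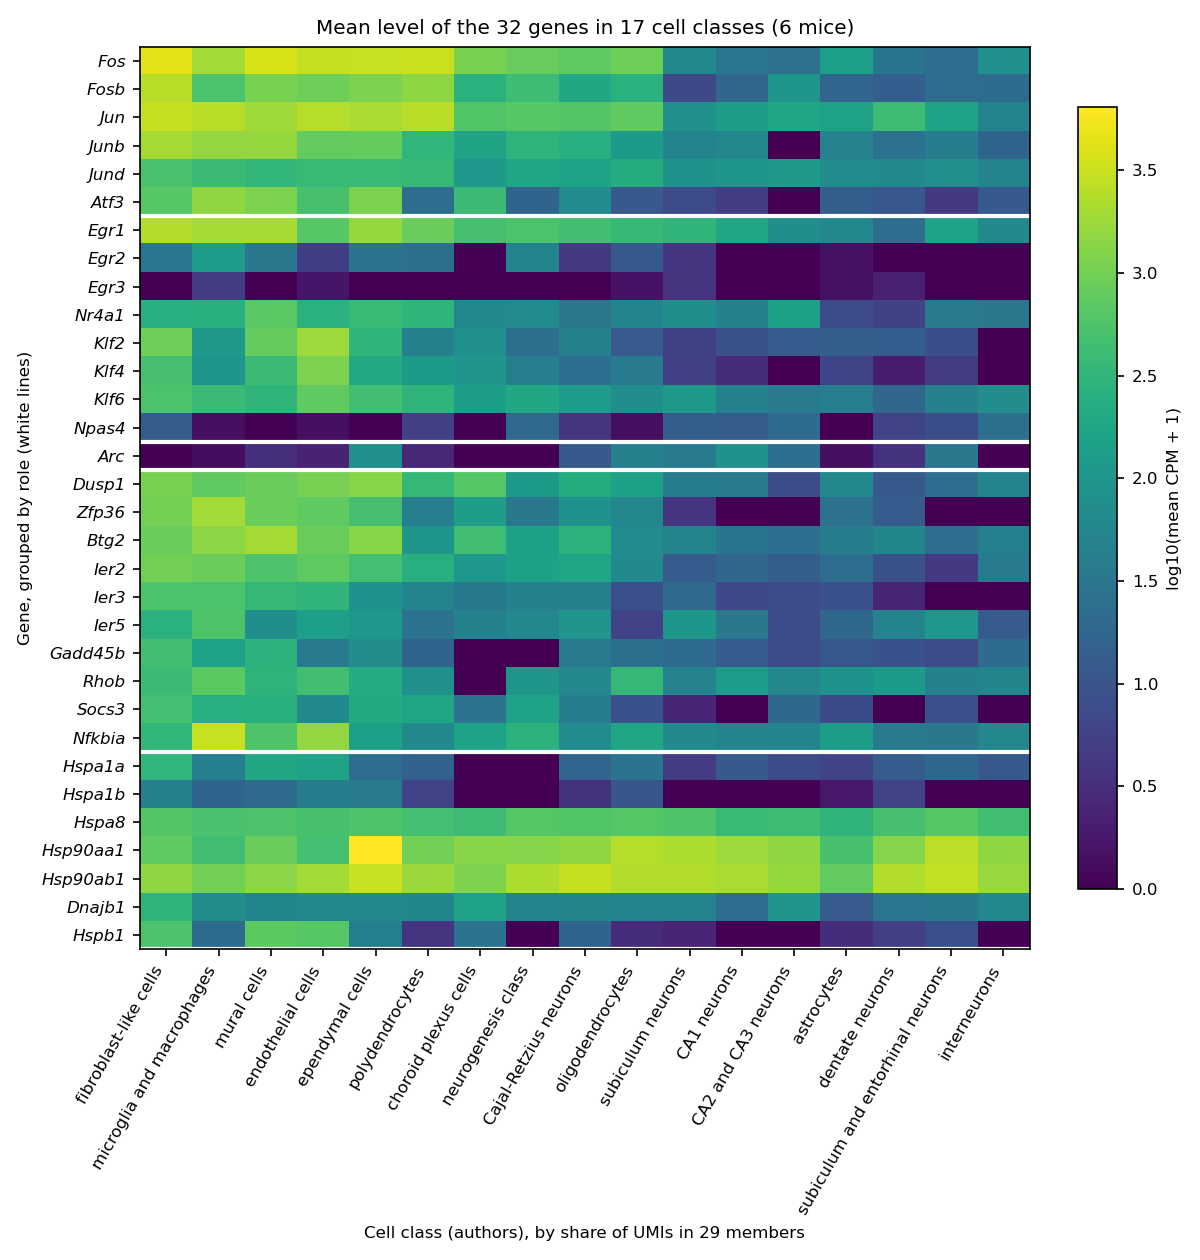
Mean level of each of the 32 members (rows, grouped by role) in each of the 17 cell classes (columns), as log10 of the mean CPM over 6 mice plus 1. Fos and Jun are high from fibroblast-like cells to polydendrocytes, while Atf3 and feedback genes such as Nfkbia and Zfp36 are low in polydendrocytes. Klf2 and Klf4 stand out in endothelial cells, and Hsp90aa1 and Hsp90ab1 are high in every class.

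Among the 29 members other than the chaperone genes, AP-1 genes reached high levels. Fos, which pairs with a Jun protein to form AP-1, had a mean of 4452 ± 1476 CPM (SD, n = 6 mice) in fibroblast-like cells, 3818 ± 672 in mural cells, 3193 ± 418 in polydendrocytes, 3119 ± 504 in ependymal cells and 2929 ± 484 in endothelial cells. Microglia and macrophages followed at 1885 ± 192, choroid plexus cells at 1099 ± 687, oligodendrocytes at 921 ± 140.1, the neurogenesis class at 828 ± 629 and Cajal-Retzius neurons at 722 ± 137, while dentate neurons stood at 28.7 ± 21.0. Neighbours in that order overlapped over mice from fibroblast-like to endothelial cells. Fosb, Junb, Jun and Jund were also highest in fibroblast-like cells, a class of 108 cells, with means of 2529 ± 786, 1958 ± 755, 3015 ± 1484 and 517 ± 235 CPM, each overlapping the next class. Jun differed from Fos in neurons: dentate neurons held 402 ± 35.2 CPM of Jun. With counts pooled over all mice, they stood at 12.8% of the highest class for Jun, against 0.616% for Fos. Atf3, a stress-induced AP-1 partner, was highest in microglia and macrophages at 1494 ± 223 CPM and stood at 22.3 ± 12.5 in polydendrocytes, which are rich in Fos.

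Other induced transcription factors split by cell type. Egr1, a zinc finger factor, was near 2373 ± 844 CPM in fibroblast-like cells, 2051 ± 587 in mural cells and 2038 ± 337 in microglia and macrophages, with overlapping ranges. Klf2 and Klf4, which blood flow induces in endothelium, reached 1785 ± 267 and 1131 ± 128 CPM in endothelial cells, which held 79.5% and 74.8% of all UMIs of these genes. Klf6 was also highest there at 749.8 ± 82.8 CPM, while Nr4a1, an orphan nuclear receptor, was highest in mural cells at 683 ± 213. Egr2 was largely a microglial transcript at 126 ± 35.4 CPM, with 71.0% of its UMIs in that class. Egr3 and the neuronal activity factor Npas4 were barely sampled, with 15 and 36 UMIs in all cells. Npas4 was highest in interneurons at 24.3 CPM, with mice from 0 to 67.8. Arc, an immediate early protein of dendrites, had its highest mean in CA1 neurons at 90.7 ± 48.2 CPM, ahead of ependymal cells at 81.1 ± 62.6, with overlapping mice. Of its 232 UMIs, 63.8% came from oligodendrocytes, the largest class, at 44.5 ± 9.92 CPM.

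Feedback genes were weighted towards microglia. Nfkbia stood at 3113 ± 257 CPM there, with mice from 2775 to 3466, above every endothelial value (1338 to 1651). Rhob, a small GTPase of the cytoskeleton, at 702 ± 152 CPM likewise did not overlap its next class. Zfp36 (1876 ± 248 CPM), Ier5 (575 ± 83.5) and Ier3 (531 ± 86.1) were highest in microglia and macrophages, all overlapping fibroblast-like cells. Btg2, an anti-proliferative cofactor, was highest in mural cells at 1959.9 ± 176 CPM, with mice from 1782 to 2191 against 1065 to 1772 in microglia. Dusp1 peaked in ependymal cells at 1369.6 ± 304 CPM, and Ier2 (996 ± 509), Socs3 (469 ± 322.4) and the stress gene Gadd45b (455 ± 271) in fibroblast-like cells, where mice spread widely.

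Heat shock genes divided into abundant and induced ones. Hsp90aa1 stood at 6417 ± 1311 CPM in ependymal cells, and no mouse overlapped the next class, subiculum and entorhinal neurons (2651 ± 407). Hsp90ab1 was 3089 ± 827 in ependymal cells and 2959 ± 583 in Cajal-Retzius neurons, with overlap. Hspa8, the resting member of the HSP70 family, was highest in subiculum and entorhinal neurons at 642 ± 87.0 CPM. Of the induced genes, Hspb1, a small heat shock protein, was vascular, with 714 ± 276 CPM in mural and 656 ± 211 in endothelial cells. Hspa1a averaged 319 ± 422 CPM in fibroblast-like cells, where single mice ran from 0 to 1123, and 185 ± 88.7 in mural cells. Hspa1b (45.4 ± 59.7) and the HSP70 partner Dnajb1 (298 ± 225) also varied widely over mice in that class.

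The most abundant member of each class summarises this pattern on the CPM scale, in which a molecule counts once whatever its length. Hsp90ab1 led in astrocytes, interneurons, the neurogenesis class and all 6 other neuron classes, and Hsp90aa1 in choroid plexus cells, ependymal cells and oligodendrocytes. Fos led in endothelial, fibroblast-like and mural cells and polydendrocytes, and Nfkbia in microglia and macrophages. The leading level was lowest in astrocytes (769 ± 66.3 CPM) and highest in ependymal cells.

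RNA set free from broken cells sets a floor under low levels. The percentages in this paragraph are of CPM with counts pooled over all mice, not of means over mice. Across 5 neuron classes (CA1, dentate, interneurons, and both subiculum classes), endothelial markers stood at 0.316% to 0.767% of their level in endothelial cells, microglial markers at 0.298% to 0.441% and oligodendrocyte markers at 0.808% to 0.973%. Fos in CA1 (0.711% of its highest class) and dentate neurons, Klf2 in CA1 (0.483%), and Atf3 in dentate neurons (0.686%) lay in these ranges. Such levels cannot be told apart from background. Egr1 in subiculum neurons (12.6%) and CA1 neurons (7.43%) and Jun in dentate neurons lay above the ranges of these marker lists. Other lists stood elsewhere: astrocyte markers at 1.70% to 4.75% in the same classes and red blood cell markers at 35.6% in CA1 neurons. In Cajal-Retzius neurons the endothelial, microglial and oligodendrocyte lists stood at 1.41%, 0.924% and 1.63%. The ranges are therefore no common floor for all genes and classes.

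Within a class the members were not spread evenly over cells. Each cell was thinned to 500 UMIs and the number of the 29 members detected was counted. At least 3 were detected in 83.2% of ependymal cells, 75.3% of endothelial cells, 63.8% of mural cells, 63.7% of fibroblast-like cells, 63.5% of microglia and macrophages and 63.0% of polydendrocytes (means of 6 mice). The share was 19.8% in oligodendrocytes, 2.02% in astrocytes and 1.03% in dentate neurons. At full depth these shares were 90.6% in endothelial cells, 76.0% in polydendrocytes, 72.3% in microglia and macrophages, 37.7% in oligodendrocytes and 8.39% in dentate neurons. At least 8 members were found in 47.0% of fibroblast-like cells, 38.7% of microglia and macrophages, 38.1% of mural cells and 31.6% of endothelial cells, but in 2.34% of polydendrocytes. In polydendrocytes cells with 3 to 7 members thus outnumbered those with 8 or more by far.

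**Figure D2:**
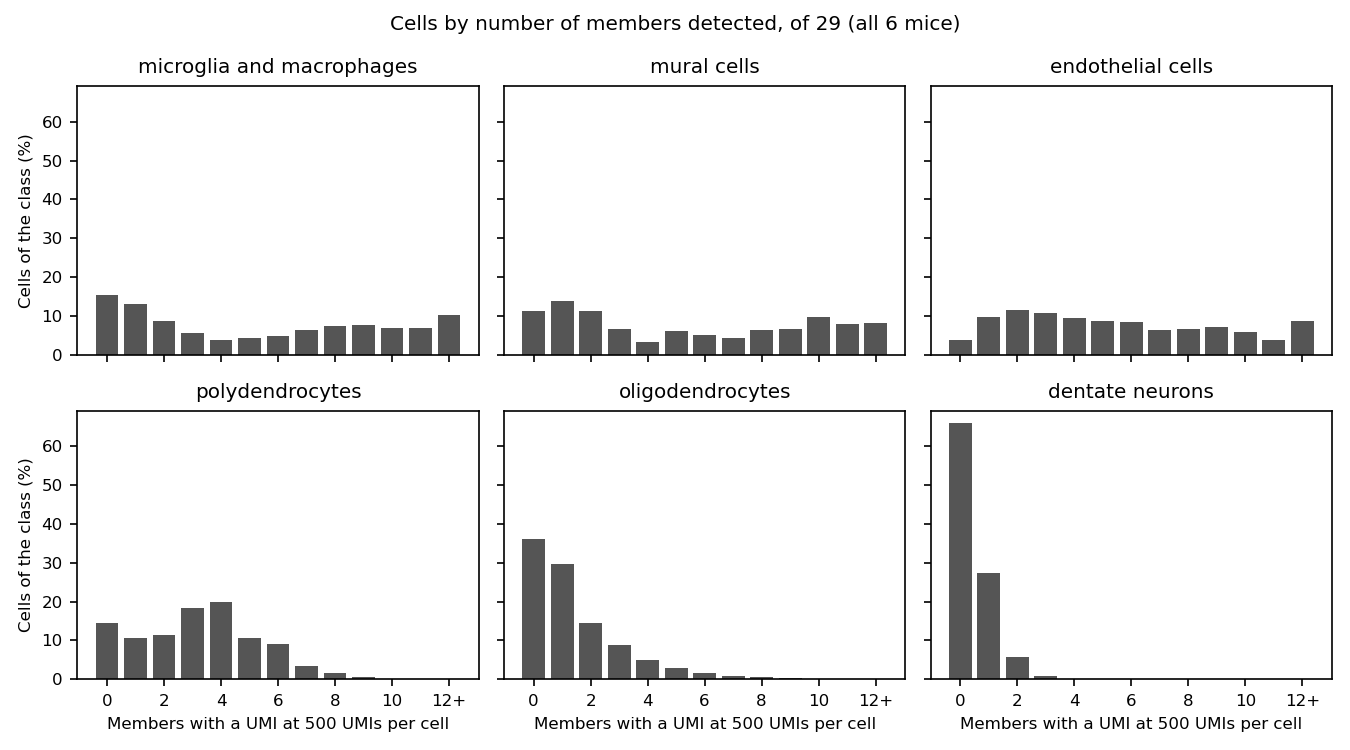
Share of cells (vertical axis, percent) by the number of the 29 members detected after thinning to 500 UMIs (horizontal axis) in the classes shown. Microglia and mural cells have many cells at 0 to 2 members and again at 8 or more, while polydendrocytes have a smaller peak at 0 members, a larger one at 3 and 4 and few cells at 8 or more.

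Microglia and macrophages held 681 cells with 2 or fewer members, 459 with 3 to 7 and 712 with 8 or more, so the middle range was the thinnest. Cells with 8 or more members made up 32.7% to 46.2% of the class in single mice, and both ranges occurred in every mouse. Their median depth was 1036 UMIs against 897 in cells with 2 or fewer, and the median mitochondrial share 4.50% against 4.82%. Microglial markers summed to 8817 CPM in the former and 10885 in the latter. Mural cells divided in the same way, into 167, 116 and 177 cells. Those with 8 or more members were 37.9%, 32.7% and 23.4% in the PBS mice and 41.3%, 44.9% and 48.4% in the ASO mice. The groups did not overlap for this mural share, while they did in microglia and in endothelial cells, and no difference was tested. Endothelial cells had their largest group in the middle, with 448, 789 and 572 cells. These ranges are cuts in a count and not cell types, and the part of depth in them beyond the thinning was not tested.

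Mouse-to-mouse spread differed between members. Over members with at least 100 UMIs in a class, the median coefficient of variation of CPM among PBS mice was 14.0% in endothelial cells (26 members), 14.5% in microglia and macrophages (26), 14.8% in mural cells (24) and 20.5% in oligodendrocytes (20). Among ASO mice it was 17.4%, 14.7%, 19.1% and 23.5%. Counting error alone would give a median of 6.55%, 7.38%, 13.1% and 10.7%, each below the medians measured, by least in mural cells. Astrocytes were uneven between the groups, at 15.3% in PBS and 42.0% in ASO mice, where ASO mouse 2 was high. Some abundant heat shock genes spread far more among the ASO mice than counting error gives. Among ASO mice Hspa8 varied by 58.8% (5.52% from counting) in oligodendrocytes and by 63.1% (7.89% from counting) in endothelial cells, and Hsp90ab1 by 36.4% (2.80% from counting) in oligodendrocytes and 48.7% (4.07% from counting) in endothelial cells. Hspb1 varied by 43.6% (6.84% from counting) in endothelial cells. Among PBS mice these values were 28.3%, 11.0%, 31.3%, 10.9% and 23.6%, in the same order.

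For the 29 members no mouse was highest in every class. Of microglial UMIs the 29 members took 2.23%, 2.05% and 2.62% in the PBS mice and 2.06%, 2.23% and 1.87% in the ASO mice, so PBS mouse 3 was highest and ASO mouse 3 lowest. In mural cells the same members took 1.87%, 2.05% and 1.67% in the PBS mice and 2.31%, 2.30% and 2.51% in the ASO mice, so PBS mouse 3 was the lowest and ASO mouse 3 the highest, and the groups did not overlap. Oligodendrocytes showed 0.452%, 0.401% and 0.420% in the PBS mice and 0.380%, 0.374% and 0.295% in the ASO mice, again without overlap but with the ASO mice below. Endothelial cells gave 2.02%, 1.80% and 1.70% in the PBS mice and 1.95%, 2.31% and 1.85% in the ASO mice, with overlap. The whole library, in which gains and losses of the classes are summed, ran from 0.846% to 0.960% with overlapping groups. PBS mouse 3 and ASO mouse 3 form set 3. It also had the highest median mitochondrial shares per cell (6.41% and 6.53%, against 4.16% to 4.32% in the others). Over all cells the choroid plexus transcript Ttr was lowest in PBS mouse 3 (1060 CPM) and highest in ASO mouse 3 (9219 CPM). Choroid plexus marker sums had the same lowest and highest mouse in endothelial cells (127 and 6937 CPM) and mural cells (173 and 6574 CPM). The part of set 3 in these values was not tested. Of the chaperone genes, Hspa8 was highest in ASO mouse 3 in 9 of the 10 classes compared below and lowest in ASO mouse 1 in 7 of 10. The 3 chaperone genes together were highest in ASO mouse 3 in 5 of 10.

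**Figure D3:**
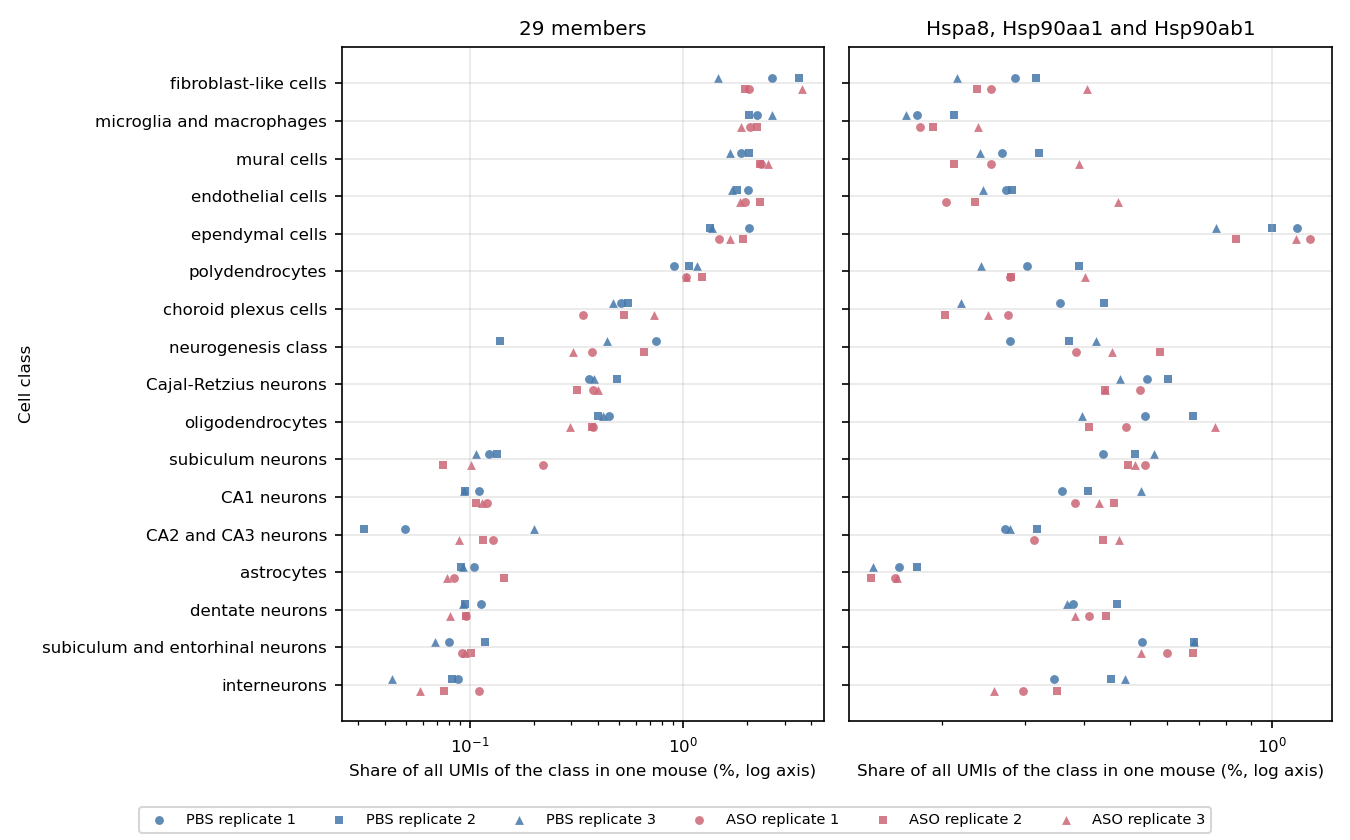
Share of UMIs (percent) taken by the 29 members and by the 3 chaperone genes in each class, with 1 point per mouse coloured by group. ASO mice lie above PBS mice in mural cells and below them in oligodendrocytes, and the groups overlap in endothelial cells and microglia.

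The ASO and PBS mice were then compared in each of the 10 classes with at least 20 cells in every mouse. Counts were summed per mouse and class, and levels below are normalised CPM (scaled to a common library size over the tested genes), listed for mice 1, 2 and 3 of each group. In these sums fewer reacting cells and less RNA per cell cannot be told apart. Fold changes are ASO against PBS. All classes come from the same 6 mice, so they are no independent repeats of the comparison.

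In oligodendrocytes, the myelinating cells, most members lay lower after the ASO. Of 22 members tested (10 were under the filter on low counts), 18 lay lower with a median log2 fold change of -0.33, whereas 48.8% of the 7141 genes tested lay lower, with a median of 0.0070. No member passed an adjusted p of 0.05 by edgeR or DESeq2 (background 0.238% of genes by edgeR), and 8 had an unadjusted edgeR p under 0.05 (background 6.6%). By role, 5 of 5 AP-1 genes, 4 of 4 other transcription factors and 6 of 7 feedback genes lay lower, against 3 of 5 heat shock genes. All ASO mice lay below all PBS mice for 4 members, against 5.67% of genes.

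Dnajb1 stood at 94.7, 58.4 and 60.9 in the PBS mice and 31.3, 31.7 and 44.3 in the ASO mice. The ASO mice were the 3 lowest (log2 fold change -1.04 with SE 0.271, adjusted p = 0.138 by edgeR). Nfkbia, the NF-kB inhibitor, was at 269.9, 256 and 183 in the PBS mice and 100.2, 153 and 187 in the ASO mice, where ASO mouse 3 overlapped PBS mouse 3 (log2 fold change -0.73 with SE 0.206, adjusted p = 0.197 by edgeR). Ier2, a nuclear immediate early protein, was at 48.3, 101 and 124 in the PBS mice and 50.1, 54.1 and 42.0 in the ASO mice, so PBS mouse 1 lay among the ASO mice (log2 fold change -0.87 with SE 0.278, adjusted p = 0.286 by edgeR). Hspa1a was at 64.5, 36.0 and 22.6 in the PBS mice and 8.76, 11.2 and 35.0 in the ASO mice, with ASO mouse 3 inside the PBS range (log2 fold change -1.34 with SE 0.441, adjusted p = 0.331 by edgeR). 4 members lay higher, and the 2 of them with the smallest p are given. Gadd45b was at 24.2, 8.99 and 29.3 in the PBS mice and 31.3, 28.0 and 35.0 in the ASO mice (log2 fold change 0.57 with SE 0.375, adjusted p = 0.871 by edgeR), and Arc at 42.3, 33.7 and 45.1 in the PBS mice and 43.8, 61.5 and 56.0 in the ASO mice (log2 fold change 0.38 with SE 0.266, adjusted p = 0.879 by edgeR). The groups overlapped for both, since ASO mouse 2 (Gadd45b) and ASO mouse 1 (Arc) lay below PBS mouse 3.

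Single mice decided whether any member passed. Without PBS mouse 1, Ier2 passed (log2 fold change -1.19, edgeR adjusted p = 0.0423). Without ASO mouse 3, Nfkbia (-0.94, edgeR adjusted p = 0.0445) and Hspa1a (-2.08, edgeR adjusted p = 0.0345) did. Across the alternatives, adjusted p values by edgeR spanned 0.0708 to 0.817 for Dnajb1 and 0.0445 to 0.817 for Nfkbia, and reached 0.9999 for Ier2 and 0.9999 for Hspa1a. Within sets 1, 2 and 3, 15, 16 and 15 of 22 members lay lower, with medians of -0.20, -0.30 and -0.35. ASO mouse 3 also had the lowest sum of oligodendrocyte markers (86906, 95698 and 80850.2 CPM in the PBS mice and 81337, 85014 and 65363 CPM in the ASO mice), of which 5 of 6 lay lower in the ASO mice. ASO mouse 2 held more red blood cell RNA than the others (1226 CPM against 106 to 136). Ependymal and CA pyramidal markers did not overlap between the groups, at 25.1 to 33.2 CPM in PBS and 53.7 to 75.4 CPM in ASO mice and 9.51 to 18.8 CPM in PBS and 21.2 to 33.6 CPM in ASO mice. The part of any of these in the members' values was not tested.

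In the class of microglia, the brain's resident macrophages, members also lay mostly lower, by less. Of 27 members tested (5 under the filter), 22 lay lower with a median of -0.16, whereas 51.3% of the 5473 genes tested lay lower, with a median of -0.0087. By edgeR and by DESeq2, 0 members passed an adjusted p of 0.05 (background 0.0365% of genes by edgeR), and 5 had an unadjusted edgeR p under 0.05 (background 5.52%). All 6 AP-1 genes and all 6 other transcription factors tested lay lower, against 7 of 10 feedback genes and 3 of 5 heat shock genes. The groups did not overlap, with ASO mice below, for 6 members (Fos, Fosb, Jund, Klf4, Klf6 and Dnajb1), against 5.57% of genes.

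Fosb was at 738, 604 and 795 in the PBS mice and 535, 442 and 469 in the ASO mice, so no ASO mouse reached the lowest PBS mouse (log2 fold change -0.55 with SE 0.161, adjusted p = 0.416 by edgeR). Klf4 was at 125, 152 and 134 in the PBS mice and 89.9, 80.9 and 73.5 in the ASO mice, again without overlap (log2 fold change -0.73 with SE 0.239, adjusted p = 0.579 by edgeR). Within sets 1, 2 and 3 the log2 differences were -0.45, -0.46 and -0.76 for Fosb and -0.90, -0.47 and -0.85 for Klf4, lower in the ASO mouse of every set. Hspa1a was at 55.0, 33.3 and 91.0 in the PBS mice and 23.7, 59.3 and 21.0 in the ASO mice, where ASO mouse 2 lay above PBS mice 1 and 2 (log2 fold change -0.99 with SE 0.404, adjusted p = 0.822 by edgeR). Rhob was at 961, 689 and 1001 in the PBS mice and 636, 787 and 637 in the ASO mice, with ASO mouse 2 above PBS mouse 2 (log2 fold change -0.38 with SE 0.165, adjusted p = 0.822 by edgeR). Against this majority, Gadd45b was at 106, 156 and 191 in the PBS mice and 263, 189 and 140.0 in the ASO mice (log2 fold change 0.41 with SE 0.232, adjusted p = 0.889 by edgeR), with ASO mice 2 and 3 inside the PBS range. Hsp90aa1 was at 469.7, 499.9 and 370.2 in the PBS mice and 546, 485 and 539 in the ASO mice (log2 fold change 0.24 with SE 0.163, adjusted p = 0.908 by edgeR), where PBS mouse 3 was lowest and the groups overlapped.

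The lean of the microglial members was largest within set 3. Within sets 1, 2 and 3, 14, 15 and 23 of 27 members lay lower, with medians of -0.010, -0.071 and -0.45, and without PBS mouse 3 the count was 17 of 27 with a median of -0.037. Markers of border macrophages, cells that share this class, moved with the groups: 6 of 6 lay higher in the ASO mice, with sums of 226, 619 and 132 CPM in the PBS mice and 293, 572 and 403 CPM in the ASO mice, while 6 of 6 microglial markers lay lower. The macrophage sums overlapped between the groups. Oligodendrocyte markers did not overlap, with sums of 950.1, 1280.3 and 1073 CPM in the PBS mice and 1486, 1396 and 1434 CPM in the ASO mice and 5 of 6 higher. Choroid plexus markers were lowest in PBS mouse 3 and highest in ASO mouse 3, with 4 of 5 higher in the ASO mice. Their sums were 3669, 5513 and 75.3 CPM in the PBS mice and 3646, 2491 and 7539 CPM in the ASO mice. Border macrophage markers were detected in 2.83% to 9.09% of the cells of this class per mouse, and without those cells 17 of 27 members lay lower with a median of -0.13. The part of these markers in the members' values was not tested.

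Mural cells, which wrap brain vessels, went the opposite way. Of 25 members tested (7 under the filter), 21 lay higher with a median of 0.33, whereas 49.5% of the 1559 genes tested lay lower, with a median of 0.0048. At an adjusted p of 0.05, edgeR and DESeq2 called no member (background 0.257% of genes by edgeR), and 8 had an unadjusted edgeR p under 0.05 (background 8.02%). Higher values were seen for 5 of 6 AP-1 genes, 4 of 5 other transcription factors, 8 of 9 feedback genes and 4 of 5 heat shock genes. All ASO mice lay above all PBS mice for 12 members, against 6.41% of genes: Fos, Fosb, Junb, Egr1, Nr4a1, Klf4, Dusp1, Zfp36, Btg2, Ier2, Gadd45b and Socs3.

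Egr1 was at 2706, 2309 and 2289 in the PBS mice and 4375, 4121 and 3806 in the ASO mice, so the groups stood well apart (log2 fold change 0.75 with SE 0.198, adjusted p = 0.144 by edgeR), and it was higher by 0.84, 0.69 and 0.73 within sets 1, 2 and 3. Gadd45b was at 298, 234 and 344 in the PBS mice and 706, 418 and 761 in the ASO mice (log2 fold change 1.07 with SE 0.315, adjusted p = 0.247 by edgeR), without overlap, and passed without ASO mouse 2 (log2 fold change 1.29, edgeR adjusted p = 0.0282). Its adjusted p ran from that value to 0.991 over the alternatives. Nr4a1 was at 1001, 703 and 810.4 in the PBS mice and 1552, 1004 and 1473 in the ASO mice (log2 fold change 0.67 with SE 0.231, adjusted p = 0.303 by edgeR), with ASO mouse 2 just above PBS mouse 1 and the other ASO mice well above it. Junb was at 2322, 1841 and 2066 in the PBS mice and 2527, 2949 and 3806 in the ASO mice (log2 fold change 0.56 with SE 0.207, adjusted p = 0.371 by edgeR), where ASO mouse 3 was highest. Nfkbia was the exception with the smallest p, at 959, 1406 and 932 in the PBS mice and 693, 816 and 688 in the ASO mice: the 3 ASO mice were lowest (log2 fold change -0.56 with SE 0.240, adjusted p = 0.503 by edgeR). Hsp90ab1 was at 2131, 2811 and 2046 in the PBS mice and 1822, 1653 and 2996 in the ASO mice, with ASO mouse 3 above all PBS mice (log2 fold change -0.11 with SE 0.223, adjusted p = 0.952 by edgeR).

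Within sets 1, 2 and 3, 13, 20 and 23 of 25 mural members lay higher, with medians of 0.083, 0.31 and 0.65. Endothelial markers, which attached vessel fragments carry, also moved: 6 of 6 were lower in the ASO mice, with sums of 2429, 4121 and 2611 CPM in the PBS mice and 1820.3, 2516 and 619.6 CPM in the ASO mice. Oligodendrocyte markers were higher for 6 of 6, at 617, 1134 and 1238 CPM in the PBS mice and 1933, 2079 and 801 CPM in the ASO mice, with overlap. Mural markers summed to 22102, 21870 and 20322 CPM in the PBS mice and 22947, 23003 and 22035 CPM in the ASO mice, with 3 of 6 higher and 3 lower. The mural sums cannot tell whether the mix of pericytes and smooth muscle changed. Higher in the ASO mice without overlap were the marker sums of microglia, a class rich in these members (53.7, 21.8 and 24.8 CPM in the PBS mice and 56.4, 119 and 60.5 CPM in the ASO mice, 5 of 6 higher), and of precursors (335, 283 and 347 CPM in the PBS mice and 532, 424 and 363 CPM in the ASO mice, 3 of 3 detected higher, Gpr17 and C1ql1 at 0). Interneuron markers were lower without overlap, at 21.8 to 49.5 CPM in PBS and 0 to 15.1 CPM in ASO mice (4 of 4 detected lower). The Cajal-Retzius sum, whose list shares Reln with the interneuron list, was 21.8 to 136 CPM in PBS and 13.2 to 16.1 CPM in ASO mice. Of its 4 markers 2 were lower and 2 higher. These sums are small, since 3 UMIs over all mice equal 6.42 CPM in this class. The part of these markers in the members' values was not tested. The class held 49 to 126 cells per mouse.

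Endothelial cells leaned the same way as mural cells, less firmly. Of 28 members tested (4 under the filter), 20 lay higher with a median of 0.16, whereas 49.4% of the 6220 genes tested lay lower, with a median of 0.0034. No member passed an adjusted p of 0.05 by edgeR or DESeq2 (background 0% of genes by edgeR), and 1 had an unadjusted edgeR p under 0.05 (background 4.1%). AP-1 genes lay higher for 5 of 6, other transcription factors for 4 of 5, feedback genes for 6 of 10 and heat shock genes for 5 of 7. The groups did not overlap, with ASO mice above, for 4 members (Fos, Fosb, Zfp36 and Dnajb1), against 4.79% of genes. Without PBS mouse 3, 16 of 28 lay higher with a median of 0.044, and within sets 1, 2 and 3 19, 12 and 21 lay higher, with medians of 0.18, -0.070 and 0.18. Markers of microglia were higher in the ASO mice for 6 of 6 genes (29.2, 26.3 and 44.1 CPM in the PBS mice and 45.3, 51.4 and 61.4 CPM in the ASO mice). Neuron markers summed to 252 to 291 CPM in PBS and 337 to 485 CPM in ASO mice, with 3 of 5 higher and 2 lower. Mural markers were lower for 5 of 6. The part of these markers in the members' values was not tested.

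Fosb was at 798, 831 and 931 in the PBS mice and 1056, 1465 and 1062 in the ASO mice (log2 fold change 0.48 with SE 0.174, adjusted p = 0.9995 by edgeR), and the ASO mice lay above the PBS mice, with ASO mouse 2 highest. Dnajb1 was at 60.5, 55.2 and 32.9 in the PBS mice and 66.8, 84.3 and 78.0 in the ASO mice (log2 fold change 0.61 with SE 0.308, adjusted p = 0.9995 by edgeR), also without overlap. Hsp90aa1 was at 439, 494 and 447 in the PBS mice and 459.9, 471 and 824 in the ASO mice (log2 fold change 0.32 with SE 0.191, adjusted p = 0.9995 by edgeR), where ASO mouse 3 alone stood above the PBS mice. Junb was at 875, 729 and 734 in the PBS mice and 865, 1023 and 945 in the ASO mice (log2 fold change 0.28 with SE 0.169, adjusted p = 0.9995 by edgeR), with ASO mouse 1 inside the PBS range. Running the other way, Rhob was at 617, 413 and 526 in the PBS mice and 435, 460.4 and 503 in the ASO mice (log2 fold change -0.15 with SE 0.176, adjusted p = 0.9995 by edgeR), and PBS mouse 1 was highest. Hspa1b was at 36.3, 49.4 and 55.9 in the PBS mice and 54.4, 38.7 and 21.7 in the ASO mice (log2 fold change -0.23 with SE 0.365, adjusted p = 0.9995 by edgeR), with ASO mouse 3 lowest and the rest overlapping.

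**Figure D4:**
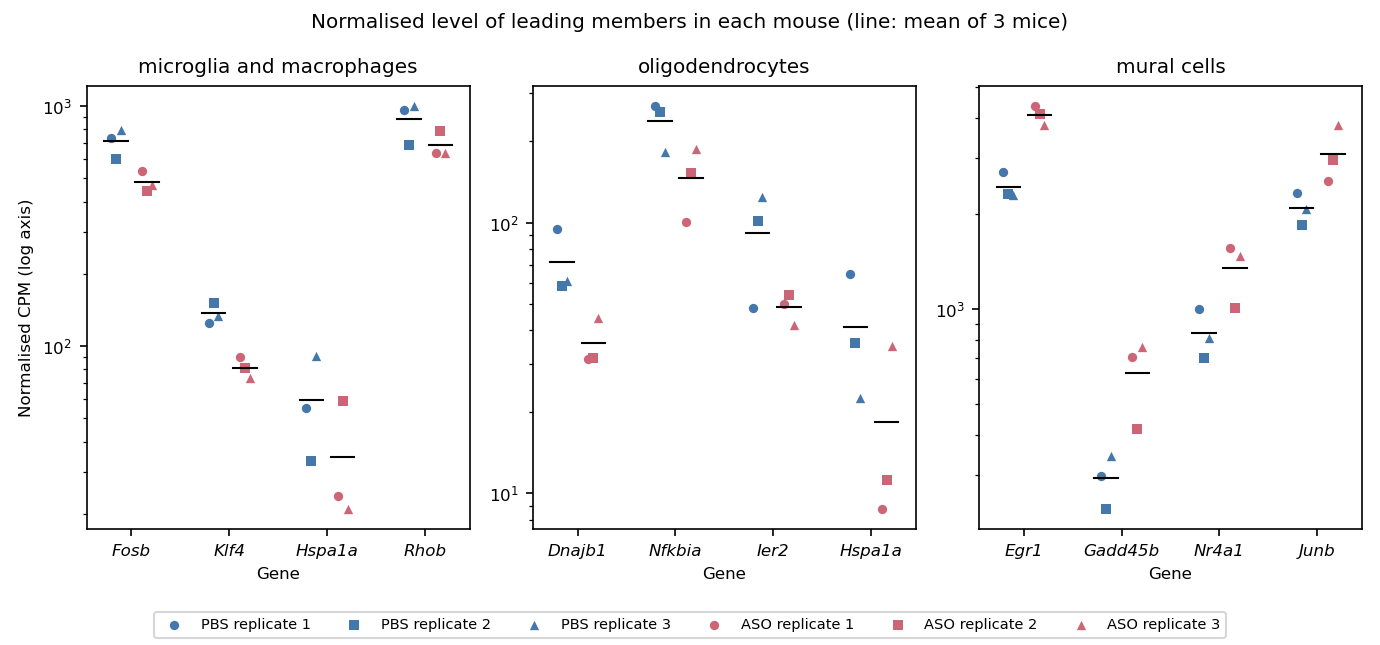
Normalised CPM per mouse of the 4 members with the smallest p in microglia and macrophages, oligodendrocytes and mural cells (1 point per mouse, by group). In mural cells the ASO points for Egr1 lie between 3806 and 4375 and the PBS points between 2289 and 2706, while in oligodendrocytes and microglia the ASO points lie lower with partial overlap.

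In astrocytes, where the members are scarce, 8 of 13 tested members (19 under the filter) lay lower with a median of -0.10, whereas 50.1% of the 6282 genes tested lay lower, with a median of -0.00040. By edgeR and by DESeq2, 0 members passed an adjusted p of 0.05 (background 0% of genes by edgeR), and 2 had an unadjusted edgeR p under 0.05 (background 3.47%). Without PBS mouse 1, 4 of 15 lay lower with a median of 0.13, so the direction changed. Nfkbia was at 164, 181 and 188 in the PBS mice and 112, 146 and 89.6 in the ASO mice (log2 fold change -0.61 with SE 0.214, adjusted p = 0.999 by edgeR), with all ASO mice below. Fos was at 113, 115 and 128 in the PBS mice and 127, 321.7 and 113 in the ASO mice (log2 fold change 0.67 with SE 0.278, adjusted p = 0.999 by edgeR), and ASO mouse 2 alone stood out. Btg2 was at 37.5, 38.4 and 23.6 in the PBS mice and 37.4, 87.99 and 29.9 in the ASO mice (log2 fold change 0.64 with SE 0.389, adjusted p = 0.999 by edgeR), and Dusp1 at 61.4, 46.6 and 63.9 in the PBS mice and 64.8, 96.2 and 49.8 in the ASO mice (log2 fold change 0.32 with SE 0.293, adjusted p = 0.999 by edgeR), again with ASO mouse 2 highest and the others overlapping. Endothelial markers stood apart in this class (41.2 to 60.1 CPM in PBS and 95.5 to 125 CPM in ASO mice, 6 of 6 higher). So did neuron markers (146 to 218 CPM in PBS and 230 to 235 CPM in ASO mice, 5 of 5 higher). Microglial markers were also apart (38.1 to 42.1 CPM in PBS and 42.6 to 78.3 CPM in ASO mice, 4 of 6 higher). Interneuron markers were lower without overlap (42.0 to 72.2 CPM in PBS and 27.3 to 36.1 CPM in ASO mice, 4 of 5 lower). The part of these markers was not tested.

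Polydendrocytes had 14 of 19 tested members higher (13 under the filter) with a median of 0.058, whereas 49.1% of the 4479 genes tested lay lower, with a median of 0.0071. At an adjusted p of 0.05, edgeR and DESeq2 called no member (background 0.0447% of genes by edgeR), and 0 had an unadjusted edgeR p under 0.05 (background 4.04%). Without PBS mouse 1, 12 of 20 lay lower with a median of -0.043, so the direction changed. Nr4a1 was at 357, 311 and 373 in the PBS mice and 463, 389.7 and 446 in the ASO mice (log2 fold change 0.30 with SE 0.217, adjusted p = 0.997 by edgeR), with the ASO mice above. Klf4 was at 141, 213 and 155 in the PBS mice and 132, 155 and 91.7 in the ASO mice (log2 fold change -0.32 with SE 0.289, adjusted p = 0.997 by edgeR), with ASO mouse 3 lowest. Btg2 was at 89.2, 88.9 and 176 in the PBS mice and 147, 176 and 105 in the ASO mice (log2 fold change 0.27 with SE 0.309, adjusted p = 0.997 by edgeR), with PBS mouse 3 and ASO mouse 2 equally high. Hspa8 was at 528, 827 and 497 in the PBS mice and 323.4, 443 and 904 in the ASO mice (log2 fold change -0.21 with SE 0.250, adjusted p = 0.997 by edgeR), and ASO mouse 3 was highest and ASO mouse 1 lowest.

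Neuron classes had few members above the filter. In Cajal-Retzius neurons, Reln-producing cells of the outer layer, 8 of 10 tested members lay lower (22 under the filter) with a median of -0.15, whereas 48.9% of the 1037 genes tested lay lower, with a median of 0.012. No member passed an adjusted p of 0.05 by edgeR or DESeq2 (background 0% of genes by edgeR), and 0 had an unadjusted edgeR p under 0.05 (background 4.44%). The count was 5 of 10 without PBS mouse 3, 5 of 10 without ASO mouse 1 and 5 of 11 without ASO mouse 2. Jun was at 1205, 1695 and 1356 in the PBS mice and 950.0, 640.5 and 1338 in the ASO mice (log2 fold change -0.56 with SE 0.285, adjusted p = 0.966 by edgeR), with ASO mouse 3 among the PBS mice. Btg2 was at 684, 385 and 946 in the PBS mice and 521, 320.2 and 535 in the ASO mice (log2 fold change -0.55 with SE 0.382, adjusted p = 0.966 by edgeR) and Hsp90ab1 at 6775, 7089 and 5077 in the PBS mice and 5608, 4643 and 5754 in the ASO mice (log2 fold change -0.24 with SE 0.272, adjusted p = 0.966 by edgeR), both with overlap. Egr1 was at 1107, 925 and 819.9 in the PBS mice and 521, 747 and 1271 in the ASO mice (log2 fold change -0.27 with SE 0.325, adjusted p = 0.966 by edgeR), where ASO mouse 3 was highest and ASO mouse 1 lowest. Of the 2 members on the other side, Hsp90aa1 was at 2573, 3082 and 2869.7 in the PBS mice and 3463, 2775 and 2877 in the ASO mice (log2 fold change 0.11 with SE 0.250, adjusted p = 0.980 by edgeR) and Fos at 1075, 1772 and 1356 in the PBS mice and 1532, 1281 and 1539 in the ASO mice (log2 fold change 0.065 with SE 0.262, adjusted p = 0.982 by edgeR), and neither group stood apart. All 4 markers of the class lay lower in the ASO mice (5988, 4728 and 5669.9 CPM in the PBS mice and 5847, 4037 and 3538 CPM in the ASO mice), as did 5 of 5 neuron markers (12026, 13439 and 11804 CPM in the PBS mice and 13664, 10851 and 7532 CPM in the ASO mice). Choroid plexus markers were higher for 5 of 5, with sums of 36198, 12882 and 22391 CPM in the PBS mice and 23838, 42449 and 102739 CPM in the ASO mice, highest in ASO mouse 3. Fibroblast markers stood apart (124 to 169.6 CPM in PBS and 194 to 542 CPM in ASO mice, 3 of 4 detected higher). The sums of microglial markers (33.9 to 112.1 CPM in PBS and 113.1 to 140 CPM in ASO mice, 3 of 6 higher) and ependymal markers (0 to 50.9 CPM in PBS and 56.1 to 85.6 CPM in ASO mice, 2 of 5 higher) did so too. The part of these in the members' values was not tested.

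In dentate neurons, the granule cells, 4 of 8 tested members lay lower (24 under the filter) with a median of -0.018, whereas 49.0% of the 5064 genes tested lay lower, with a median of 0.0064. By edgeR and by DESeq2, 0 members passed an adjusted p of 0.05 (background 0% of genes by edgeR), and 0 had an unadjusted edgeR p under 0.05 (background 3.32%). Jun, an AP-1 gene that stood above the marker ranges given for neurons, was at 478, 510.4 and 519 in the PBS mice and 422, 457 and 434 in the ASO mice (log2 fold change -0.20 with SE 0.191, adjusted p = 0.9998 by edgeR), so all ASO mice lay below by a small step. Rhob was at 117, 160.1 and 187 in the PBS mice and 139, 126 and 97.3 in the ASO mice (log2 fold change -0.37 with SE 0.269, adjusted p = 0.9998 by edgeR), with ASO mouse 3 lowest. Btg2 was at 77.8, 55.0 and 34.6 in the PBS mice and 57.6, 99.4 and 58.4 in the ASO mice (log2 fold change 0.40 with SE 0.399, adjusted p = 0.9998 by edgeR) and Hspa8 at 561, 510.4 and 539.9 in the PBS mice and 466, 596 and 733 in the ASO mice (log2 fold change 0.15 with SE 0.196, adjusted p = 0.9998 by edgeR), both with overlapping groups. Oligodendrocyte markers stood apart (503 to 771 CPM in PBS and 841 to 947 CPM in ASO mice, 6 of 6 higher), as did neuron markers (7068 to 7418 CPM in PBS and 6173 to 6788 CPM in ASO mice, 4 of 5 lower). CA pyramidal markers did too (9.22 to 21.8 CPM in PBS and 27.6 to 49.2 CPM in ASO mice, 4 of 4 higher). Red blood cell markers stood at 2523 CPM in ASO mouse 2, against 64.8 to 148 CPM in the other mice. The part of these markers was not tested.

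In CA1 neurons the 3 chaperone genes alone passed the filter (29 members under it), 2 of them lower with a median of -0.058, whereas 50.1% of the 943 genes tested lay lower, with a median of -0.000089. At an adjusted p of 0.05, edgeR and DESeq2 called no member (background 0% of genes by edgeR), and 0 had an unadjusted edgeR p under 0.05 (background 4.77%). Hsp90ab1 was at 4650.3, 4366 and 4772 in the PBS mice and 3273, 4606 and 4170.4 in the ASO mice (log2 fold change -0.20 with SE 0.247, adjusted p = 0.971 by edgeR), Hsp90aa1 at 2325, 3275 and 4629 in the PBS mice and 3734, 3732 and 3881 in the ASO mice (log2 fold change 0.15 with SE 0.248, adjusted p = 0.971 by edgeR) and Hspa8 at 455, 509 and 1241 in the PBS mice and 615, 685 and 869 in the ASO mice (log2 fold change -0.058 with SE 0.321, adjusted p = 0.988 by edgeR). The groups overlapped for all 3, and PBS mouse 3 was highest for Hsp90aa1 and Hspa8. Without PBS mouse 3 the Hspa8 value was 0.51, so its direction changed.

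In subiculum neurons, which carry hippocampal output, Egr1 passed the filter beside the 3 chaperone genes (28 members under it), and 3 of 4 lay higher with a median of 0.12, whereas 49.0% of the 1062 genes tested lay lower, with a median of 0.0080. No member passed an adjusted p of 0.05 by edgeR or DESeq2 (background 0.188% of genes by edgeR), and 0 had an unadjusted edgeR p under 0.05 (background 5.84%). Egr1 was at 795, 373 and 509.7 in the PBS mice and 1203, 340.4 and 443 in the ASO mice (log2 fold change 0.22 with SE 0.395, adjusted p = 0.990 by edgeR), and ASO mouse 1 was highest. Without that mouse its log2 fold change was -0.41. Hspa8 was at 738, 1037 and 1147 in the PBS mice and 1236, 1123 and 1549 in the ASO mice (log2 fold change 0.44 with SE 0.319, adjusted p = 0.984 by edgeR), Hsp90ab1 at 4430.0, 5017 and 4778 in the PBS mice and 4576, 4289.5 and 4536 in the ASO mice (log2 fold change -0.087 with SE 0.284, adjusted p = 0.992 by edgeR) and Hsp90aa1 at 3976, 3980.4 and 5161 in the PBS mice and 4910.3, 4051 and 4259 in the ASO mice (log2 fold change 0.015 with SE 0.287, adjusted p = 0.995 by edgeR), all with overlap.

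Summed over all cells, the module showed no lean: 16 of 30 tested members lay lower (Egr3 and Npas4 were under the filter) with a median of -0.0058, whereas 49.5% of the 14002 genes tested lay lower, with a median of 0.0028. By edgeR and by DESeq2, 0 members passed an adjusted p of 0.05 (background 0.00714% of genes by edgeR), and 3 had an unadjusted edgeR p under 0.05 (background 4.07%). Gadd45b was at 38.9, 39.1 and 49.5 in the PBS mice and 78.7, 51.4 and 62.9 in the ASO mice (log2 fold change 0.60 with SE 0.174, adjusted p = 0.962 by edgeR), with all ASO mice above. Hspa1b was at 19.7, 16.4 and 11.1 in the PBS mice and 10.9, 8.14 and 9.13 in the ASO mice (log2 fold change -0.71 with SE 0.268, adjusted p = 0.999 by edgeR), with all ASO mice below. Arc was at 16.9, 11.4 and 11.95 in the PBS mice and 22.1, 15.8 and 18.3 in the ASO mice (log2 fold change 0.50 with SE 0.236, adjusted p = 0.999 by edgeR), where ASO mouse 2 lay below PBS mouse 1. Dnajb1 was at 63.7, 58.2 and 41.6 in the PBS mice and 41.6, 44.1 and 48.2 in the ASO mice (log2 fold change -0.29 with SE 0.169, adjusted p = 0.999 by edgeR), with overlap. A whole-library sum also moves with the share of each class among the cells.

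**Figure D5:**
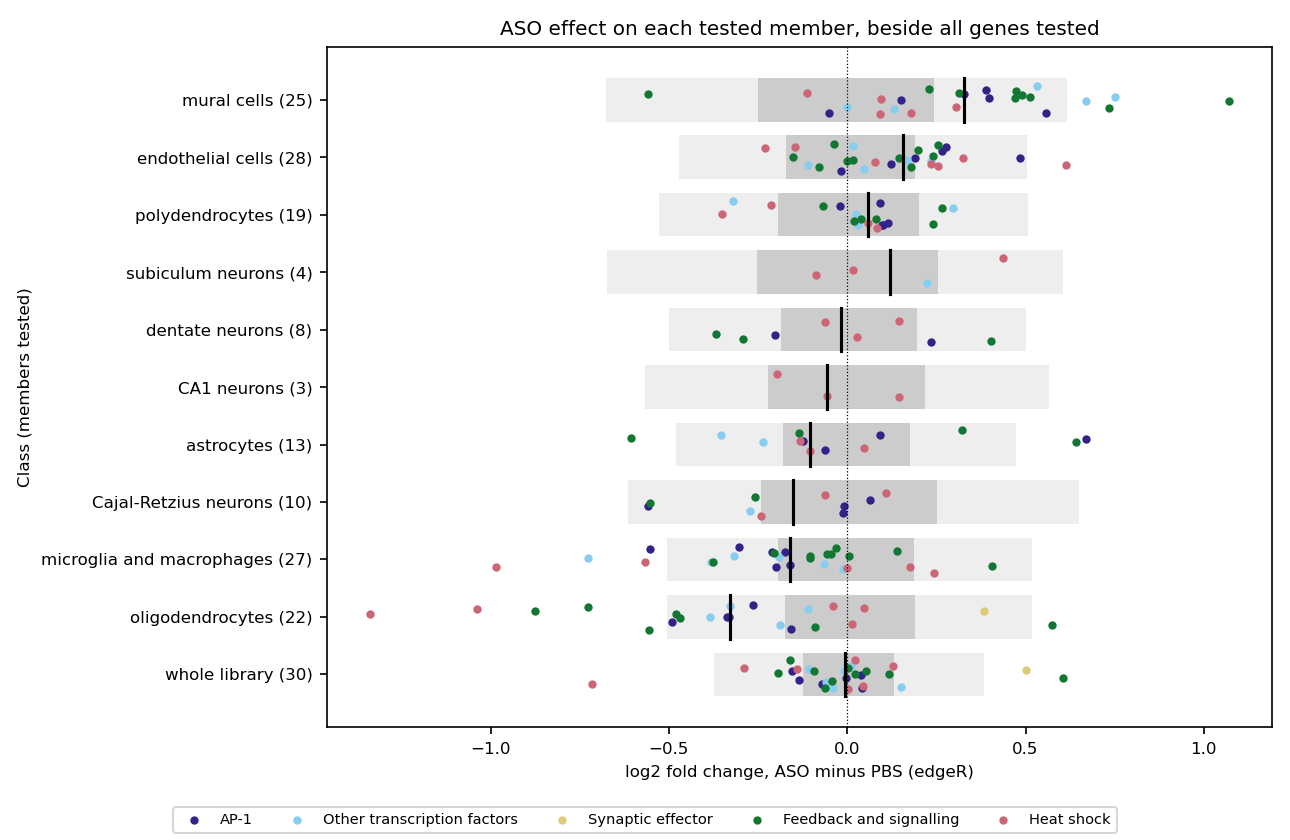
Log2 fold change (ASO against PBS) of each tested member in each of the 10 classes and the whole library, 1 point per gene. Grey bands give the quartiles and the 5th to 95th percentile of all genes tested. The black line is the median of the tested members alone. Members crowd below 0 in oligodendrocytes and microglia and above 0 in mural cells, and most points lie inside the bands.

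Whether the ASO effect itself differed between classes was tested with a model of all classes and mice, by subtracting from 1 class the mean of the 9 others. Of the 7235 genes that could be fitted, 17 were members: Fos, Jun, Junb, Jund, Egr1, Nr4a1, Klf6, Dusp1, Btg2, Ier5, Gadd45b, Rhob, Nfkbia, Hspa8, Hsp90aa1, Hsp90ab1 and Dnajb1. No member passed an adjusted p of 0.05 by edgeR in any class. The background was 0% of genes in mural cells, microglia, endothelial cells and Cajal-Retzius, dentate and subiculum neurons, 0.0553% in oligodendrocytes, 0.0276% in astrocytes and 0.0138% in both CA1 neurons and polydendrocytes. DESeq2 was not run on this model. The nearest was Egr1 in mural cells, which exceeded the other classes by 0.98 (SE 0.222, edgeR unadjusted p = 1.86e-05, adjusted p = 0.102). Against the summed counts of the other classes its adjusted p was 0.0656.

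The directions of the members relative to the other classes were 13 of 17 higher in mural cells (median 0.29, all genes 0.066), 10 of 17 higher in endothelial cells (median 0.12, all genes -0.034), 14 of 17 lower in microglia and macrophages (median -0.25, all genes -0.011) and 15 of 17 lower in oligodendrocytes (median -0.38, all genes -0.029). Unadjusted p lay under 0.05 for 6 members in oligodendrocytes (background 5.18%), 4 in subiculum neurons (5.81%), 3 in Cajal-Retzius neurons (5.87%), and 2 each in microglia (4.48%), mural cells (4.99%) and endothelial cells (4.33%). It lay under 0.05 for 1 member each in astrocytes (4.13%), CA1 neurons (4.16%) and dentate neurons (4.22%), and for 0 in polydendrocytes (3.61%). Against the summed counts of the other classes the number was 8 in oligodendrocytes (background 6.29%) and 7 in mural cells (4.18%), with no member past the adjusted threshold in either. The 6 members of oligodendrocytes were, against the mean of the other classes, Dusp1 at -0.90 (SE 0.261, edgeR unadjusted p = 0.000684, adjusted p = 0.355), Dnajb1 at -1.0004, Nr4a1 at -0.997, Fos at -0.54, Btg2 at -0.67 and Junb at -0.55. Each class enters the mean of the others, so a lean in 1 class shifts the contrast of the rest.

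Seen by gene, Fos lay higher in 5 and lower in 2 of the 7 classes where it was tested, with all ASO mice above the PBS mice in endothelial and mural cells and all below in microglia and oligodendrocytes. Nfkbia was lower in all 5 classes tested, with no overlap in astrocytes and mural cells. It was the only member tested in 5 or more classes that lay on 1 side in each of them. Hsp90aa1 lay higher in 8 of 10 classes, with overlap in every one. Gadd45b was higher in 3 of 4 classes, without overlap in mural cells alone.

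Other genes of the same pathways were counted from a list of 53, of which 52 were in the table. In oligodendrocytes 10 of 20 tested lay lower with a median of -0.0035. In microglia and macrophages 19 of 31 lay lower (median -0.027). In mural cells 18 of 24 lay higher (median 0.26), and in endothelial cells 17 of 27 (median 0.13). The shares of all genes are those given above. 1 passed the test: Sgk1, a kinase induced by glucocorticoids and salt, fell in oligodendrocytes from 1440.1, 1299 and 1302 in the PBS mice to 342, 778 and 805 in the ASO mice (log2 fold change -1.08 with SE 0.209, adjusted p = 0.0151 by edgeR). No PBS and ASO mouse overlapped. Sgk1 was also at 409, 196 and 248 in the PBS mice and 220.5, 181 and 144 in the ASO mice in polydendrocytes (log2 fold change -0.61 with SE 0.264, adjusted p = 0.997 by edgeR).

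None of the rest passed. In mural cells Errfi1, a feedback inhibitor of EGF receptors, was at 1172, 937 and 952 in the PBS mice and 1950.1, 1611 and 1399.7 in the ASO mice (log2 fold change 0.70 with SE 0.214, adjusted p = 0.256 by edgeR), without overlap, and Ppp1r15a, the stress phosphatase subunit, at 1342, 769.7 and 932 in the PBS mice and 1296, 1819.9 and 2210.0 in the ASO mice (log2 fold change 0.76 with SE 0.235, adjusted p = 0.256 by edgeR). Gadd45g, a relative of Gadd45b, was at 189, 200.5 and 171 in the PBS mice and 299, 292 and 273 in the ASO mice in endothelial cells (log2 fold change 0.63 with SE 0.190, adjusted p = 0.9995 by edgeR) and at 66.9, 35.6 and 56.9 in the PBS mice and 162, 101 and 170.4 in the ASO mice in polydendrocytes (log2 fold change 1.32 with SE 0.378, adjusted p = 0.760 by edgeR), with every ASO mouse above every PBS mouse in both. In microglia Rgs1, a G protein regulator, was at 239, 274 and 130.5 in the PBS mice and 419, 302 and 238 in the ASO mice (log2 fold change 0.62 with SE 0.220, adjusted p = 0.760 by edgeR) and the chaperone partner Dnajb4 at 80.7, 111 and 149 in the PBS mice and 78.1, 70.1 and 73.5 in the ASO mice (log2 fold change -0.62 with SE 0.259, adjusted p = 0.822 by edgeR). Bhlhe40 in astrocytes was at 85.3, 85.1 and 87.5 in the PBS mice and 162, 129 and 119 in the ASO mice (log2 fold change 0.68 with SE 0.227, adjusted p = 0.999 by edgeR), with the ASO mice above. Hsph1, an HSP110 chaperone, was at 434, 320.3 and 270.0 in the PBS mice and 134, 258 and 259 in the ASO mice in dentate neurons (log2 fold change -0.66 with SE 0.246, adjusted p = 0.9998 by edgeR), with the ASO mice below.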

How the data were processed

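The authors deposited 1 table of raw UMI counts (genes by cells), not normalised, whose column names carry the mouse and a cell class. The submitters' processing notes name bcl2fastq, STAR 2.5.0c, mm10 and GRCm38, without their roles. Which program counted the reads, with which annotation and whether by strand, is not given in the sources used here. Cells in the deposited table held at least 501 genes, 569 to 1999 UMIs and at most 15.0% mitochondrial UMIs. Doublets were called per mouse with Scrublet in scanpy 1.11.5, and 207 cells (1.61%) were removed.

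Counts were summed per mouse and class, since the mouse is the replicate. The test of ASO against PBS mice was the two-sided quasi-likelihood test of edgeR 4.0.16 (R 4.3.3) after filterByExpr and TMM scaling, with Benjamini-Hochberg adjustment over all genes tested in a class and a threshold of 0.05. DESeq2 1.42.0 served as an alternative. Differences between classes were tested in edgeR with mouse as a block. Differences within technical sets are of log2(normalised CPM + 1). Of these steps, the edgeR test of ASO against PBS was tried on simulated counts, for microglia and macrophages and for oligodendrocytes.

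The members, gene lists and comparisons were chosen with earlier results of these data known. In each class, values per mouse are given for the 4 members with the smallest p and up to 2 that ran against the majority, and of the 53 other pathway genes for those that passed or up to 2 by smallest p. Class levels and list counts are descriptions without a test. With 3 mice a group, p-values set the group difference against the spread of these 6 mice within their groups. That spread is estimated with help from all genes tested in the class. UMI counts limit precision in small classes: 3 UMIs over all mice equal 0.900 CPM in oligodendrocytes and 51.1 CPM in choroid plexus cells.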

Additional observations from a re-analysis of the deposited data

Results flagged for a closer look

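For 2 members that could not be fitted in the test between classes, all ASO mice lay on one side of the PBS mice in 1 class and on the other side in another. Fosb had a log2 fold change of 0.4835 in endothelial cells and 0.3977 in mural cells, with the ASO mice above, and of -0.5535 in microglia and macrophages, with the ASO mice below. Klf4 had 0.5333 in mural cells, with the ASO mice above, and -0.7268 in microglia and macrophages, with the ASO mice below. The difference between classes was not tested for either gene, and neither passed the edgeR threshold within a class.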

How the results depend on the processing

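Of the log2 fold changes of named members under other settings, 663 kept their direction and their side of the threshold, 4 newly passed it and 24 changed sign, none of them for a member that passed in any setting. No paired analysis was possible because no label pairs the mice, and the mouse numbers only follow the order of the samples in each group. A fit with a term for the 3 technical sets, which come from the data, called 0 members in each class and the whole library. With 1 mouse left out, the number of members called ran from 0 to 1 in mural cells (1 without ASO mouse 2) and from 0 to 2 in oligodendrocytes (1 without PBS mouse 1, 2 without ASO mouse 3). Hspa8 in CA1 neurons was 0.07614 with no filter on low counts, 0.1936 at a mitochondrial limit of 10%, 0.1611 thinned to equal totals, 0.09072 with a term for technical sets and from -0.2807 to 0.5054 with 1 mouse left out. Fos in Cajal-Retzius neurons was -0.03828 with no filter, -0.2655 thinned and from -0.0948 to 0.2538 with 1 mouse left out. Hsp90ab1 in subiculum neurons was 0.07785 with no filter and 0.009774 thinned. The other sign changes came from leaving out 1 mouse, with ranges from -0.3985 to 0.04969 for Hsp90ab1 in mural cells, -0.05185 to 0.4082 for Hsp90aa1 in CA1 neurons and -0.01266 to 0.1669 in Cajal-Retzius neurons, -0.6191 to 0.04896 for Egr1 in Cajal-Retzius neurons, -0.02804 to 0.2927 for Hspa8 in dentate neurons and -0.6527 to 0.06605 in polydendrocytes, and in subiculum neurons -0.04424 to 0.1588 for Hsp90aa1 and -0.407 to 0.5728 for Egr1. The cause was not tested. Leaving the 3 chaperone genes out of the share of UMIs, by construction, lowered it to 0.09944% in astrocytes, 0.5235% in choroid plexus cells, 1.938% in endothelial cells, 1.638% in ependymal cells, 0.0764% in interneurons, 0.4444% in the neurogenesis class, 0.1067% in CA1, 0.1022% in CA2 and CA3, 0.3881% in Cajal-Retzius, 0.09575% in dentate, 0.1268% in subiculum and 0.09217% in subiculum and entorhinal neurons, 0.3872% in oligodendrocytes and 1.073% in polydendrocytes. At a mitochondrial limit of 10% the share in CA2 and CA3 neurons was 0.3227%. Unthinned, cells with 3 or more members made up 7.905% of astrocytes, 90.56% of endothelial cells, 72.33% of microglia and macrophages, 77.84% of mural cells, 11.39% of CA1, 36.83% of Cajal-Retzius, 8.391% of dentate and 13.53% of subiculum neurons, 37.71% of oligodendrocytes and 76.01% of polydendrocytes, since deeper cells show more members.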
